A study of Homo sapiens with 36 samples.

Results

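The genes examined here were CTCF, RAD21, SMC3, STAG1 and NIPBL, which encode an insulator protein and parts of the cohesin machinery. The members described are the TET1 peaks that lay within 20 kb of these 5 gene bodies on the human build hg19, and they numbered 29 of the 62066 peaks in 6 deposited lists. TET1, an enzyme that oxidises 5-methylcytosine in DNA, had been mapped by chromatin immunoprecipitation and sequencing (ChIP-seq) in HEK293T, a human embryonic kidney cell line. The 6 groups were cells transfected with an siRNA called siNC, taken as the control because it names no gene, or with siCHD3, siCHD4, siCHD5, siMBD2 or siMBD3. Each siRNA other than siNC is named for a subunit of NuRD, a complex that remodels nucleosomes and deacetylates histones, and every group is the same line. The transfection is worded in the labels as a joint one, with no partner named, and beyond that no other alteration is stated. No level of a targeted protein was analysed here. Each group had 3 pull-down and 3 input libraries but 1 peak list, whose name carries the 3 replicates together. No spread between replicates could be computed, so the values below are described and not tested.

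CTCF is a zinc-finger protein that binds an asymmetric DNA motif and stops cohesin as it extrudes chromatin loops. Cohesin is a ring of SMC1A, SMC3 and RAD21 with STAG1 or STAG2 bound to it, and NIPBL, with MAU2, loads the ring onto DNA and drives extrusion. CTCF binding at many sites is blocked by CpG methylation in its motif, which TET enzymes can remove. The title of the study concerns NuRD and chromatin at CTCF sites. The question here is where TET1 lay at the genes of this machinery themselves, and in which siRNA lists.

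TET1 peaks at the 5 genes were found in the siNC and siCHD5 lists and in no other. The siNC list held 13 of them among 28450 peaks, and the siCHD5 list held 16 among 32749. The siCHD3, siCHD4, siMBD2 and siMBD3 lists held 0 each, among 140, 110, 358 and 259 peaks. These short lists also held 0 peaks within 50 kb of the genes. Across the whole siNC list, siCHD3 overlapped 0.179% of peaks, siCHD4 0.169%, siMBD2 0.25% and siMBD3 0.176%. Against that background, 0 of 13 siNC peaks overlapped at these genes is no result about the genes. The peak of a short list nearest to any of the genes was a siMBD3 peak 1.78 Mb from RAD21. The next was a siMBD2 peak 10.3 Mb from RAD21, and a siMBD2 peak lay 12.6 Mb from STAG1. The nearest peaks to CTCF lay 21.2 Mb away in all 4 short lists. The median control background of the short-list peaks on chromosome 16, 2 or 3 per list, was 80.7 to 246 reads, against 3.17 in siNC. For SMC3 the nearest lay 36.4 Mb away in siMBD2 and 69.7 to 69.8 Mb away in siCHD3, siCHD4 and siMBD3. On chromosome 10 that background was 327 to 972 reads, against 4.23 in siNC. On chromosomes 8, 3 and 5 it was 1.83 to 3.30 reads in siMBD2 and siMBD3. For NIPBL they lay 22.8 Mb away in siMBD2, 36.5 Mb in siMBD3 and 45.0 Mb in siCHD3. siCHD3 and siCHD4 had no peak on chromosome 3, which carries STAG1, and siCHD4 had none on chromosome 5, which carries NIPBL. Median fold enrichment was 1.53 in siCHD3, 1.44 in siCHD4, 4.60 in siMBD2 and 4.13 in siMBD3, against 6.72 in siNC. The median background over each whole list, recovered as described below, was 379, 431, 2.33 and 3.74 reads, against 3.70 in siNC. These distances are to listed entries, which were not tested as TET1 sites.

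The 5′ end of STAG1 was the sole one among the 5 genes with a TET1 peak within the 1 kb to which the gene ends are known here. The share of all gene starts that carry a peak was not computed, so 1 start among 5 is no result about STAG1. The peaks nearest to the 5′ ends of NIPBL, SMC3, RAD21 and CTCF lay 6.27, 10.1, 12.9 and 14.9 kb upstream in siNC. The sequences around 4 of the 5 gene starts are shown to set the start that carried a peak beside 3 that did not. They come from RefSeq on GRCh38.p14, run 5′ to 3′ in the direction of the gene, and hold 250 bases before the start and 50 from it on. RAD21 had no entry in that table. Capitals mark matches, on either strand, of a core pattern of the CTCF motif: CCA, any 2 bases, AG, any 2 bases, GGC.
STAG1 (chr3:136752329-136752628, minus strand): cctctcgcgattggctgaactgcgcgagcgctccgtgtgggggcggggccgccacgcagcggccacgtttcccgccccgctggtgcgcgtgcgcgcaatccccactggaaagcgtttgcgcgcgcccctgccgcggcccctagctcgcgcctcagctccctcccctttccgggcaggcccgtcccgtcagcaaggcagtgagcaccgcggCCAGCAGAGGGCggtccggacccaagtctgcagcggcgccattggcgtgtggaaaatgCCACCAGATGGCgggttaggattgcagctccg
CTCF (chr16:67562276-67562575, plus strand): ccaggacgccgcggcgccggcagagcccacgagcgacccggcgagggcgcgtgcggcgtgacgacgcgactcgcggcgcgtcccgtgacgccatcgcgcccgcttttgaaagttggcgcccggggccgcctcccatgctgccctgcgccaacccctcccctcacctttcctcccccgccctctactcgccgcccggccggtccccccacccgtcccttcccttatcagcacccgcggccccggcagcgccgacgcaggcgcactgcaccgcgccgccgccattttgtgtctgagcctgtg
SMC3 (chr10:110567445-110567744, plus strand): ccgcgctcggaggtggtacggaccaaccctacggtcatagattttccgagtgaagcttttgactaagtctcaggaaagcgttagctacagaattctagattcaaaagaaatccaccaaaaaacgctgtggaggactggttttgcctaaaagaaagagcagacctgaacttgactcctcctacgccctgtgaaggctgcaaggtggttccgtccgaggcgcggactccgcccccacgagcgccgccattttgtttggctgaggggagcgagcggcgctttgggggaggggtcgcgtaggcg
NIPBL (chr5:36876519-36876818, plus strand): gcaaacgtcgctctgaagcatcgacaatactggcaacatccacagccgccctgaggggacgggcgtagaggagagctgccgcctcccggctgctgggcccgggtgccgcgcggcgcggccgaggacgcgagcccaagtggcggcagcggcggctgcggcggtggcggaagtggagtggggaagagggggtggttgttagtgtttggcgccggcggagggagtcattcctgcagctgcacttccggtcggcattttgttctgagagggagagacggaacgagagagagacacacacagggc

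STAG1 held 2 matches of this pattern, and the other 3 starts held 0. The matches read CCAGCAGAGGGC, beginning 40 bases before the start, and CCACCAGATGGC, beginning at base 19 of the transcribed part, both in the direction of the gene. Of 35116 RefSeq promoters of the same length, 845 (2.41%) held the pattern at least 1 time and 16 (0.0456%) held it 2 times or more. The pattern was chosen after the STAG1 sequence had been read. These shares and the contrast of STAG1 with the other 3 starts are therefore a description and support nothing about the peak. The planned pattern was a shorter part of the CTCF consensus, GGNGGCAG. It had 2 matches at NIPBL and 0 at STAG1, CTCF and SMC3, and it occurs in 16.7% of promoters. The GC box GGGCGG had 3 matches at STAG1, 2 at CTCF and 1 each at SMC3 and NIPBL, and it occurs in 45.0% of promoters. One of the STAG1 GC boxes, at bases 219 to 224 of the sequence, shares bases with the CTCF pattern at 211 to 222. TATAAA, the TATA box, was in none of the 4 starts and in 11.5% of all promoters. All 4 starts held more CG dinucleotides, the context in which TET1 acts, than the median promoter: CTCF had 46, STAG1 37, NIPBL 30 and SMC3 23, against a median of 14 over all promoters. The CTCF start, with more CG dinucleotides than 97.1% of promoters, had no TET1 peak, and the STAG1 start, with more than 88.7%, had one. A relation of peaks to CG content was not tested. A match of letters is not evidence of binding, and the GRCh38 sequences were not placed on the hg19 peaks base by base.

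**Figure D1:**
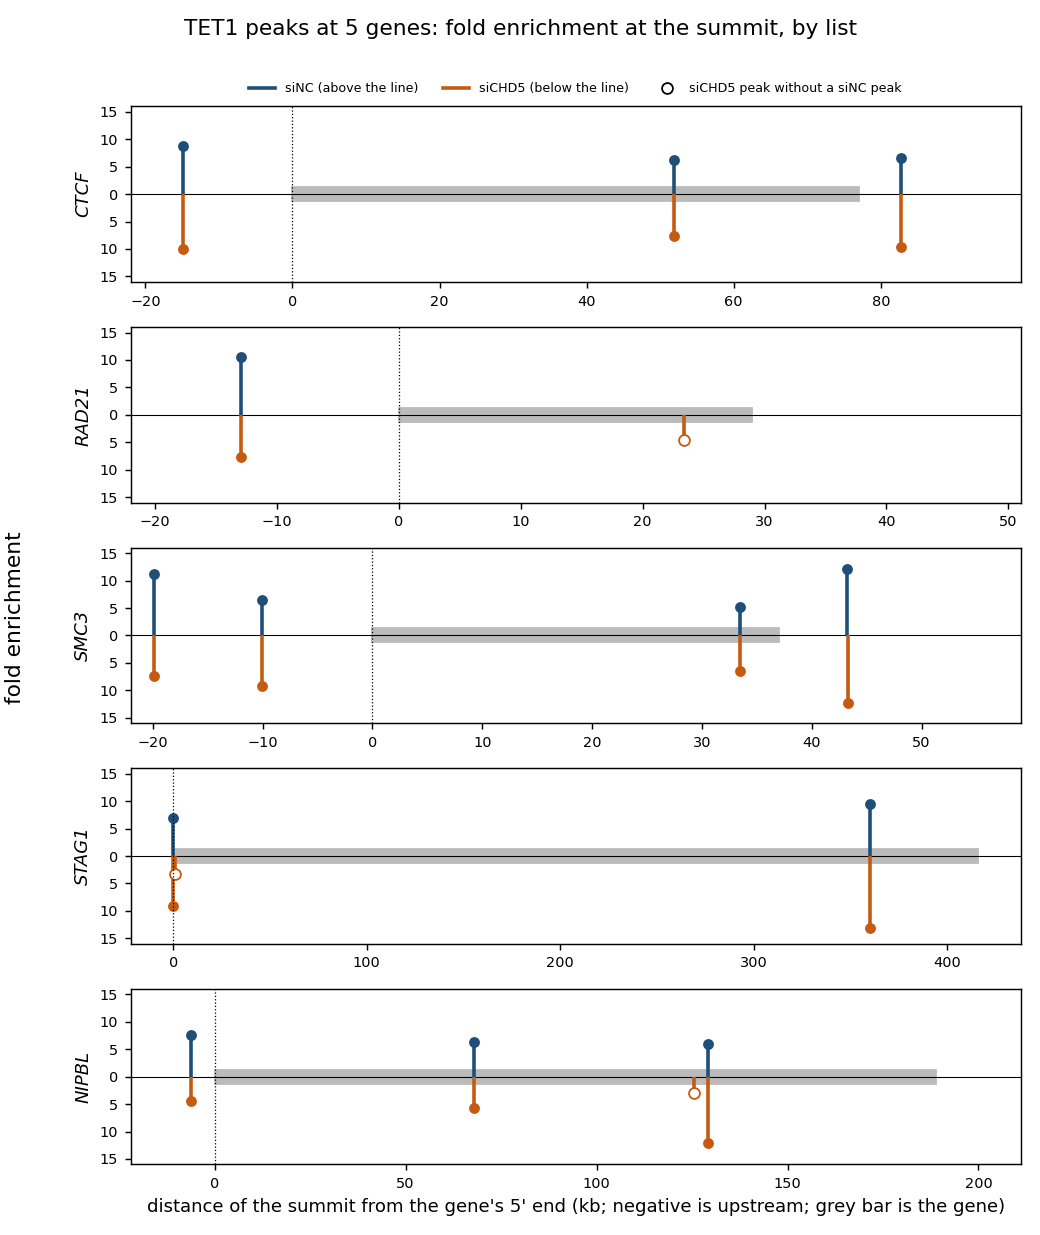
Fold enrichment of every TET1 peak within 20 kb of the 5 genes (vertical axis) against the distance of its summit from the 5′ end in kb (horizontal axis, negative upstream, a different scale for each gene), with siNC above and siCHD5 below the line. The grey bar is the gene body, and open circles are the 3 siCHD5 peaks without a siNC peak. STAG1 alone has peaks at the dotted line that marks the 5′ end.

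Across the genes, 6 of the 13 siNC peaks lay upstream of a 5′ end, 5 in a gene body and 2 past a 3′ end. Gene ends are rounded to 1 kb, so the STAG1 peak 239 bp upstream could lie on either side of its 5′ end. In siCHD5 the numbers upstream, in gene bodies and past 3′ ends were 6, 8 and 2. They thus differed between the lists in gene bodies alone, which take up most of the windows. The siCHD5 peak of STAG1 245 bp upstream lies within the same rounding. The one 722 bp inside lies farther from the end than rounding to the nearest kb could move it. The 5 windows span 948 kb in all, which gives 13.7 siNC peaks per Mb, against 9.62 per Mb over chromosomes 1 to 22 and X between the outermost siNC peaks of each. In siCHD5 these values were 16.9 and 11.1 per Mb. The genes varied widely around that figure. SMC3 had 51.9 siNC peaks per Mb, against 10.98 for the whole of chromosome 10. CTCF had 25.6, against 9.96 on chromosome 16, RAD21 14.5, against 8.26 on chromosome 8, and NIPBL 13.1, against 8.87 on chromosome 5. STAG1, the longest of the 5, had 4.39, against 7.76 on chromosome 3. These densities rest on 1 to 4 peaks per gene.

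Fold enrichment is the authors' value for the pull-down over the control at a peak's summit, and it belongs to its own list. Folds in lists of different length are set side by side below, and no change is read from them. The 13 siNC peaks had folds of 5.24 to 12.0 with a median of 6.96, against 6.72 for the whole siNC list, and 7 of the 13 were above the list median. The 16 siCHD5 peaks had folds of 2.93 to 13.03 with a median of 7.66, against 6.90 for the list, and 10 of the 16 were above it. The member medians stood close to the list medians, and single members ranged from above 4.07% to above 91.6% of the siCHD5 list. Coordinates below are those of the siNC peak where both lists hold a site.

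CTCF, on the plus strand of chromosome 16 (67.596 to 67.673 Mb), had 3 siNC peaks, and siCHD5 had a peak at each. The peak upstream lay at chr16:67580950-67581256, 14.9 kb before the 5′ end. Its fold was 8.86 in siNC, above 73.7% of that list, and 9.99 in siCHD5, above 77.6%. The second lay in the gene body at chr16:67647780-67648076, 51.9 kb into the gene and 25.1 kb before the 3′ end, with folds of 6.29 in siNC and 7.62 in siCHD5. The third lay 5.72 kb past the 3′ end at chr16:67678539-67678813, with folds of 6.58 and 9.73. The next gene in that direction is CARMIL2, which encodes a regulator of actin capping. The 3 summits of the 2 lists stood 1, 9 and 8 bp apart. No peak of any list lay between 14.9 kb upstream and 51.9 kb into the gene, a stretch that includes the CG-rich start shown above.

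SMC3, an ATPase arm of the ring on the plus strand of chromosome 10 (112.327 to 112.364 Mb), had 4 peaks in siNC, the most of the 5 genes, and siCHD5 had a peak at each. The strongest lay 6.25 kb past the 3′ end at chr10:112370097-112370471. Its fold of 12.0 was above 91.5% of the siNC list, and its siCHD5 fold of 12.3 was above 89.2% of that list. Its −log10 q-value was 66.6 in siNC and 85.2 in siCHD5, the highest of all members in each list. A peak 19.9 kb upstream, at chr10:112306930-112307383, had a fold of 11.2 in siNC and 7.42 in siCHD5. A nearer one, 10.1 kb upstream at chr10:112316776-112317137, had 6.45 and 9.16. The folds of these neighbours thus stood in opposite order in the 2 lists, but their pull-down pileups, recovered as described below, did not. With the farther peak first, pileups were 61 and 60 reads in siNC and 82 and 65 in siCHD5. Control backgrounds were 4.52 and 8.45 reads in siNC and 10.2 and 6.20 in siCHD5. The peak in the gene body, 3.54 kb before the 3′ end at chr10:112360352-112360626, had the lowest siNC fold among the members, 5.24, and 6.54 in siCHD5.

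RAD21, the kleisin that closes the ring, lies on the minus strand of chromosome 8 (117.858 to 117.887 Mb). It had 1 siNC peak, the fewest of the 5 genes. That peak lay 12.9 kb upstream at chr8:117899604-117900085 and was the widest member, at 482 bp against a siNC median of 300 bp. Its fold was 10.6 in siNC, above 85.7% of the list, and 7.69 in siCHD5, above 58.6%. siCHD5 had a further peak within the gene at chr8:117863475-117863710, 5.59 kb before the 3′ end, and siNC had none there. The fold of that peak was 4.56, above 20.6% of the siCHD5 list. The start of RAD21 had no peak in any list.

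STAG1, the subunit through which cohesin meets CTCF and DNA, spans 416 kb of the minus strand of chromosome 3 (136.055 to 136.471 Mb). The siNC peak at its 5′ end lay at chr3:136471122-136471346, with its summit 239 bp outside the gene end as rounded to 1 kb. Its fold was 6.96 in siNC, above 53.1% of the list, and the siCHD5 peak at chr3:136471036-136471377 had 9.11, above 71.4%. The divergent non-coding gene STAG1-DT is the neighbour on that side, and the peak cannot be given to 1 of these starts. siCHD5 had a further peak 722 bp inside the gene, at chr3:136470204-136470421, and siNC had none there. That peak was weak, with a fold of 3.20 and a −log10 q-value of 2.37, the lowest of all members. The other shared peak lay deep in the gene at chr3:136110536-136110796, 360.4 kb from the 5′ end. Its folds were 9.44 in siNC and 13.03 in siCHD5, the latter the highest member value, above 91.6% of the siCHD5 list. Between these sites stretched 360.6 kb with no siNC peak. Of 28313 gaps between consecutive siNC summits on chromosomes 1 to 22 and X, 1436 (5.07%) were as long, and the median gap was 47.3 kb.

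NIPBL, the loader, lies on the plus strand of chromosome 5 (36.877 to 37.066 Mb). It had 3 siNC peaks, 1 upstream and 2 in the gene body, and siCHD5 had a peak at each. The upstream peak lay at chr5:36870575-36870877, 6.27 kb before the 5′ end, on the side of the divergent non-coding gene NIPBL-DT. Its fold was 7.54 in siNC, above 60.4% of the list, and 4.47 in siCHD5, above 20.2%. Pull-down pileups there were 56 reads in siNC and 53 in siCHD5, over control backgrounds of 6.56 and 11.1 reads. The peak at chr5:36944773-36945105, 67.9 kb into the gene, had folds of 6.31 and 5.64. The peak at chr5:37006080-37006363, 129.2 kb into the gene, had 5.996 in siNC and 12.0 in siCHD5, which placed it above 39.2% of the siNC list and 88.3% of the siCHD5 list. Those folds were the farthest apart of any shared site, and with 1 list per group that gap could not be set against replicate error. Pileups there were 62 reads in siNC and 94 in siCHD5, over backgrounds of 9.51 and 6.90 reads. siCHD5 also had a weak peak 3.76 kb away, at chr5:37002363-37002657, with a fold of 2.93, the lowest member value in either list.

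**Figure D2:**
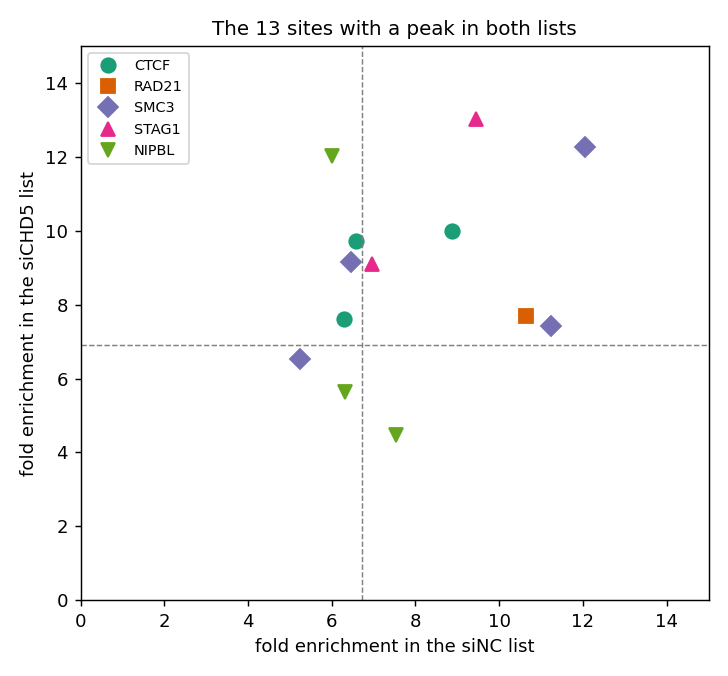
Fold enrichment in the siNC list (horizontal axis) and in the siCHD5 list (vertical axis) at the 13 sites with a peak in both, with 1 marker shape per gene and dashed lines at the medians of the whole lists, 6.72 and 6.90. The SMC3 peak past the 3′ end (12.0 and 12.3) stands high in both lists, and the NIPBL peak with folds of 5.996 and 12.0 stands low in one and high in the other.

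All 13 siNC peaks at these genes were overlapped by siCHD5 (100%, exact Clopper-Pearson 95% interval 75.3 to 100), against 85.4% of all siNC peaks. Among the 17813 siNC peaks whose fold lay in the range of the members, 94.1% were overlapped, so the share at the 5 genes stood near its background. In the other direction 13 of the 16 siCHD5 peaks were overlapped by siNC (81.25%, interval 54.4 to 95.95), against 74.5% of all siCHD5 peaks. The 3 without a siNC partner, in RAD21, STAG1 and NIPBL, all lay in gene bodies and had the folds 4.56, 3.20 and 2.93. The gene body fills 29 of the 69 kb of the RAD21 window, 416 of 456 kb at STAG1 and 189 of 229 kb at NIPBL. Their place in gene bodies is therefore no result about the genes. Among the 5417 siCHD5 peaks with a fold in that range, 38.3% were overlapped by siNC. The range was set by the 3 peaks without a partner, so their own lack of overlap was fixed in advance. The upstream NIPBL peak, with a siCHD5 fold of 4.47, also lay in the range and had a siNC partner. The intervals cover counting error only, and neighbouring peaks are not independent.

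The shared peaks coincided closely. Their summits stood 1 to 23 bp apart, with a median of 8 bp, against a median of 10 bp over all 24294 siNC peaks overlapped by siCHD5. The overlap took in at least 56.4% of each siNC peak and 65.8% of each siCHD5 peak. All 29 members had 1 summit per interval, as did 97.4% of siNC and 96.8% of siCHD5 entries. Widths ran from 225 to 482 bp in siNC (median 303) and from 218 to 417 bp in siCHD5 (median 308), close to the list medians of 300 and 301 bp.

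The reads behind these folds differed between the genes. Pull-down pileup and control background at each summit were recovered from the deposited fold and −log10 p-value. At CTCF the background was 2.50 reads under each of the 3 siNC peaks and 2.80 under each of the 3 siCHD5 peaks, and pull-down pileups were 21 to 30 and 28 to 37 reads. These backgrounds are floors of the lists, shared by 5096 siNC peaks (17.9%) and 7058 siCHD5 peaks (21.6%), and a STAG1 peak in siNC stood at the floor as well. At STAG1 the background was 2.50 to 3.38 reads over both lists. At RAD21 it was 6.34 to 8.42, at SMC3 4.52 to 10.2 and at NIPBL 6.56 to 11.1, while the medians of the whole lists were 3.70 in siNC and 4.10 in siCHD5. The background at the 3 latter genes thus did not overlap that at CTCF and STAG1 in either list. This split was drawn from the same values, with 1 to 4 peaks per gene and list. The share of all peaks on each side of it was not computed. Equal folds therefore rest on unequal reads: a siNC fold of 6.29 in CTCF came from 21 pull-down reads, and one of 6.31 in NIPBL came from 52. Within 1 Mb of the gene the median siNC background was 5.28 reads for RAD21, 4.75 for SMC3, 3.70 for NIPBL and STAG1 and 3.12 for CTCF. In siCHD5 it was 5.37 for RAD21, 5.76 for SMC3, 4.75 for NIPBL, 3.12 for STAG1 and 3.32 for CTCF, in another order. Copy number and mappability at these genes were not tested.

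**Figure D3:**
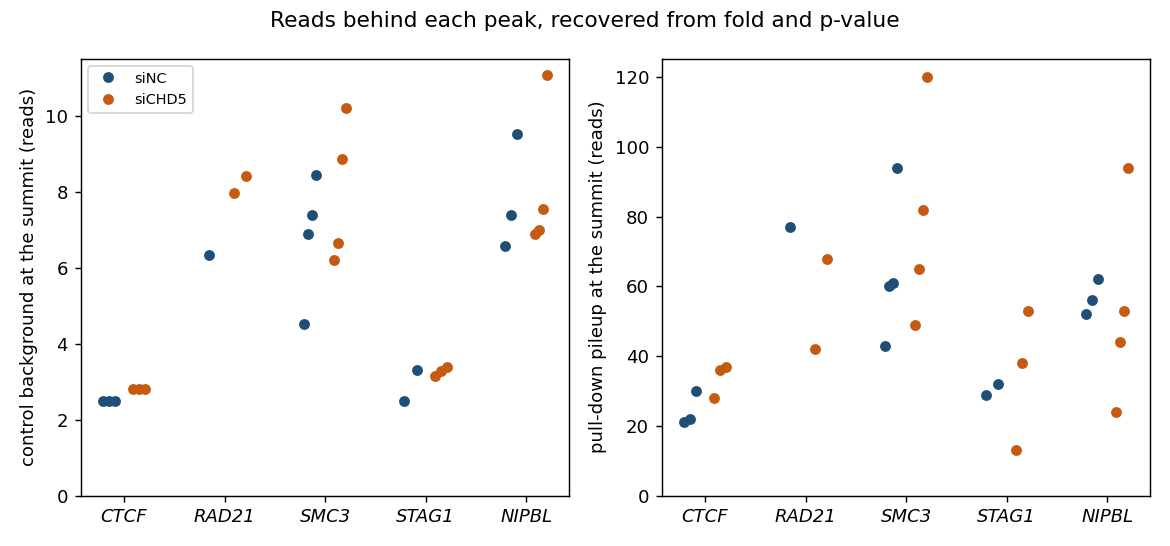
Control background (left, reads) and pull-down pileup (right, reads) at the summit of each member peak, by gene, for siNC and siCHD5; each point is 1 peak. Background stays at or under 3.38 reads for CTCF and STAG1 and at or above 4.52 reads for RAD21, SMC3 and NIPBL, and the highest pileup is the 120 reads of the SMC3 peak past the 3′ end in siCHD5.

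The 20 kb limit left few peaks close to it. Just inside stood the SMC3 peak 19.9 kb upstream, given above. Just outside stood a siCHD5 peak 28.96 kb past the 3′ end of CTCF (6.83-fold, not in siNC), a siCHD5 peak 30.1 kb past the 3′ end of STAG1 (5.61-fold, not in siNC) and a siNC peak 31.2 kb upstream of SMC3 (5.39-fold, not in siCHD5).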

How the data were processed

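TET1 ChIP-seq was carried out on 18 pull-down and 18 input libraries of HEK293T, and 6 peak lists, 1 per siRNA, were analysed here. Among the tools in the submitters' processing notes are the peak caller MACS2 2.1.2 and the aligner Bowtie2 2.3.4, and the build is hg19. Not given in the sources used here are their settings and any filter on duplicates or regions. The authors' fold enrichment (ratio), −log10 p-value and −log10 q-value refer to a peak's summit, and the score that the authors deposited is that q-value on the same scale multiplied by 10 and cut to a whole number, in at least 99.6% of each list. Read totals were not analysed here, so depth is known only through the recovered pileups.

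Peaks with any base within 20 kb of a gene body were members. Gene ends came from the selection rule, rounded to 1 kb. The lengths differed from those of RefSeq genes by at most 1.35 kb, at SMC3, so distances to its ends may be off by that much. Strands came from the RefSeq promoter table and, for RAD21, from general knowledge. Neighbouring genes were named from RefSeq on GRCh38.p14. Overlap meant at least 1 bp. Pileup and background were solved from fold, with a pseudocount of 1, and −log10 p-value, to a tolerance of 0.02, which gave values for 99.99% or more of siNC and siCHD5 peaks. Overlap and recovery were tested on simulated data (numpy 2.4.6, pandas 2.3.3, scipy 1.17.1, matplotlib 3.10.9). The simulated backgrounds did not reach down to the floors of 2.50 and 2.80 reads. They were made with the same formula, so the test cannot show that the formula holds for the deposited values. All member peaks are named. The genes and lists were chosen with earlier results of these data known, and the CTCF core pattern and the fold-range backgrounds after the data were seen. Other cohesin genes were not analysed here, since no gene annotation of hg19 was used.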

Additional observations from a re-analysis of the deposited data

How the results depend on the processing

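Values of siNC and siCHD5 were recomputed under alternatives. These were gene bodies alone, 50 kb windows, summits in place of any base and intervals counted 1 time. Others were an overlap of 50% of both peaks and the other list's summit inside the peak. The last were a fold of at least 4 and a −log10 q-value of at least 10. Of 46 values, 44 were counted as close to those reported, by a loose rule. A share was close if inside the 95% interval of the reported share, 54.4 to 95.95 for siCHD5 peaks overlapped by siNC. A count of 22 against 16 also passed. The distances of the nearest summits to the 5′ ends could not move, since those peaks pass both limits. Nor could the siNC counts and the siNC shares under these limits, since all 13 siNC peaks and their siCHD5 partners pass them. With gene bodies alone the peaks numbered 5 in siNC and 8 in siCHD5, since fewer bases were counted. With 50 kb windows they numbered 18 and 22, and 17 of 18 siNC peaks were overlapped by siCHD5 (94.4%). The share of siCHD5 peaks overlapped by siNC was 62.5% (5 of 8) with gene bodies alone, 77.3% (17 of 22) with 50 kb windows and 92.9% (13 of 14) with a fold of at least 4 in both lists, so it fell on either side of the 74.5% of the whole list. The 4 short lists gave 0 under each alternative, which says nothing on stability, since they hold so few peaks. No paired analysis was possible because each siRNA has 1 list that carries its replicates together, and for the same reason no replicate could be left out. Pileups of 13 to 120 reads at the summits limit what the weaker peaks can show, and peaks under the caller's threshold were not listed.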

Other observations

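Between 20 and 50 kb from the genes there were 5 further siNC entries and 6 further siCHD5 entries, 9 of the 11 near CTCF. The siNC peak of highest fold within 50 kb of the 5 genes lay in this zone, at chr16:67554876-67555800, with summits 40.9 and 40.4 kb upstream of CTCF. Its siNC folds were 13.4 and 20.3. The siCHD5 peak there also had a pair of summits, with folds of 8.23 and 12.7, under the 13.03 of the peak deep in STAG1. Another peak, 33.8 kb past the 3′ end of CTCF at chr16:67706697-67706917, had a fold of 3.82 in siNC and 7.89 in siCHD5. A peak 47.5 kb upstream of CTCF had 5.73 and 5.55. The interval with the pair of summits was the sole one of that kind within 50 kb of the 5 genes in these lists.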
